A study of Mus musculus with 7 samples.

Results

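Adipokines are proteins that fat cells make and, in most cases, release. The mammary gland of a nulliparous mouse is largely a fat pad crossed by epithelial ducts, so RNA of a whole gland holds the adipokine transcripts of its fat together with those of epithelium, vessels and stroma. The 9 adipokine genes described here were Adipoq, Lep, Retn, Rbp4, Nampt, Apln, Rarres2, Angptl4 and Nnat, picked from 37008 gene names on the array by the name given to each probe in the files. They were measured by 10 of the 56605 probes, 2 of them for Retn and 1 for each of the other genes. All 10 probes were among the 34284 compared between genotypes, and in all 7 arrays both dyes were well above background at each of them.

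Total RNA came from 3 wild-type and 4 PRA transgenic FVB mice, all nulliparous females of 20 to 25 weeks taken at diestrus, with 1 abdominal gland and 1 array per animal. The PRA transgenic mouse is bigenic. A GAL-4 driver under a CMV promoter turns on an added A form of the progesterone receptor, and the labels call its gland preneoplastic. In both genotypes the lymph nodes had been cut out, and the fatty layer that rose above the Trizol lysate was discarded before RNA purification. Gland RNA carried Cy5, a pooled reference RNA of mouse cell lines carried Cy3 on every array, and no array had the dyes swapped. A log2 ratio here is the log2 of processed Cy5 over processed Cy3. A scaled signal is the log2 of 1 dye minus the 75th percentile of that dye on that array. Row 1 of the slide held all the wild-type glands and row 2 all the PRA transgenic ones, so that the effect of the row and that of the genotype cannot be told apart. In Cy5, 62.6 to 66.1% of probes were well above background on wild-type arrays and 56.6 to 60.2% on PRA transgenic arrays. In Cy3, which carried the same reference RNA on every array, the shares were 53.2 to 54.0% and 47.2 to 50.6%.

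Adiponectin (Adipoq) circulates in multimers, raises fatty acid oxidation in muscle and liver, and acts through Adipor1 and Adipor2. Leptin (Lep) reports the size of the fat stores to the brain and is also sensed by epithelium that carries Lepr. Resistin (Retn) opposes insulin in mice, Rbp4 carries retinol in blood, chemerin (Rarres2) draws immune cells through Cmklr1, and apelin (Apln) acts on vessels and heart through Aplnr. Angptl4 is a secreted inhibitor of lipoprotein lipase. Nampt makes nicotinamide mononucleotide inside cells and is found outside them as visfatin, and Nnat encodes neuronatin, a small membrane protein that is not secreted.

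Promoter sequences are shown for 4 of these genes. Adipoq and Rbp4 varied between animals much as the markers of fat cells did, Lep followed them less closely in the log2 ratio, though not in Cy5 alone, and Apln varied most, as described below. RefSeq promoters of GRCm38.p6 were found for 7 of the 9 genes, and each runs from 250 bases before to 50 bases after the start of transcription. Capitals mark matches, on either strand, to a TATA box (TATAAA), a C/EBP motif (TTGCNNAA), an Sp1 box (GGGCGG) or the direct repeat read by PPAR and RXR (copies of AGGTCA on the same strand, spaced by 1 base). The Adipoq promoter (chr16:23146286-23146585, plus strand) held none of these letters.
Adipoq: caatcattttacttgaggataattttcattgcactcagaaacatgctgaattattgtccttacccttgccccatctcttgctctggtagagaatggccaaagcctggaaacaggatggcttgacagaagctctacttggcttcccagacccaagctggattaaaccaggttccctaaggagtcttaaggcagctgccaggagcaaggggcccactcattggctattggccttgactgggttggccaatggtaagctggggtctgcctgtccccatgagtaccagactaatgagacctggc
The Lep promoter (chr6:29059971-29060270, plus strand) held a C/EBP match at -55 and an Sp1 box at -98 from the start site.
Lep: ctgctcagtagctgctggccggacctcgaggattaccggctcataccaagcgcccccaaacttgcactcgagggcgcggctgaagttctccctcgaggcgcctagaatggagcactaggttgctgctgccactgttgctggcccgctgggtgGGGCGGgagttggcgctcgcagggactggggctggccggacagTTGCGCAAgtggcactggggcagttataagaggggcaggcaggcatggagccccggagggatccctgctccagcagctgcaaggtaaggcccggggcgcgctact
Of the 2 Rbp4 promoters, the one at chr19:38124762-38125061 on the minus strand held a TATA box at -28, a C/EBP match at -128 and Sp1 boxes at -114 and -99.
Rbp4: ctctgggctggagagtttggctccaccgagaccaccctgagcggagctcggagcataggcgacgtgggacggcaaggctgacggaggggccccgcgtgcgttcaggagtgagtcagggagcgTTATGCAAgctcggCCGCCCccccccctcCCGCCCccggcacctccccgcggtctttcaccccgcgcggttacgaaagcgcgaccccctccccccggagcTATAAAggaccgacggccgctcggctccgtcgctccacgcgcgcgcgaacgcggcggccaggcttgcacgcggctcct
The Apln promoter (chrX:48034804-48035103, minus strand) held 1 Sp1 box, at -144.
Apln: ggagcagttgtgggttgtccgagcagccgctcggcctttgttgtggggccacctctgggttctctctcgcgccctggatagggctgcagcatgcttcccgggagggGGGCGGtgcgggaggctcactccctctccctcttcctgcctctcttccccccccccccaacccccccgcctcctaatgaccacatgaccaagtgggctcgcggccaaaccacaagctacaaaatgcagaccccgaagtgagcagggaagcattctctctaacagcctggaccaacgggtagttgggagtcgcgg
Among all 32851 promoters of this length, 13.6% held the TATA box, 10.8% the C/EBP motif, 35.7% the Sp1 box and 0.0396% the direct repeat. No member promoter held the direct repeat, and those of Retn and Nnat held none of the 4 motifs.

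Between the genotypes no adipokine passed the test. None of the 10 probes had an adjusted p under 0.05 in limma, against 0.0117% of all probes, and none had an unadjusted p under 0.05, against 9.02% of all probes. The animals of the 2 genotypes overlapped at every one of the 10 probes, while 9.95% of all probes had genotypes that did not overlap. The median log2 fold change over the 9 genes, PRA transgenic minus wild-type, was 0.13, against 0.02 over all probes tested. The value was above 0 for 8 of the 9 genes, against 54.2% of all probes, and the gene below 0 was Angptl4. In Cy5 alone the median over the 9 genes was 0.09, against 0.0028 over all probes, and 5 of the 9 genes were above 0, against 50.5% of all probes. No member passed there either: none had an adjusted limma p under 0.05 (0.0146% of all probes), none an unadjusted p under 0.05 (8.73%), and none had genotypes that did not overlap (9.66%).

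**Figure D1:**
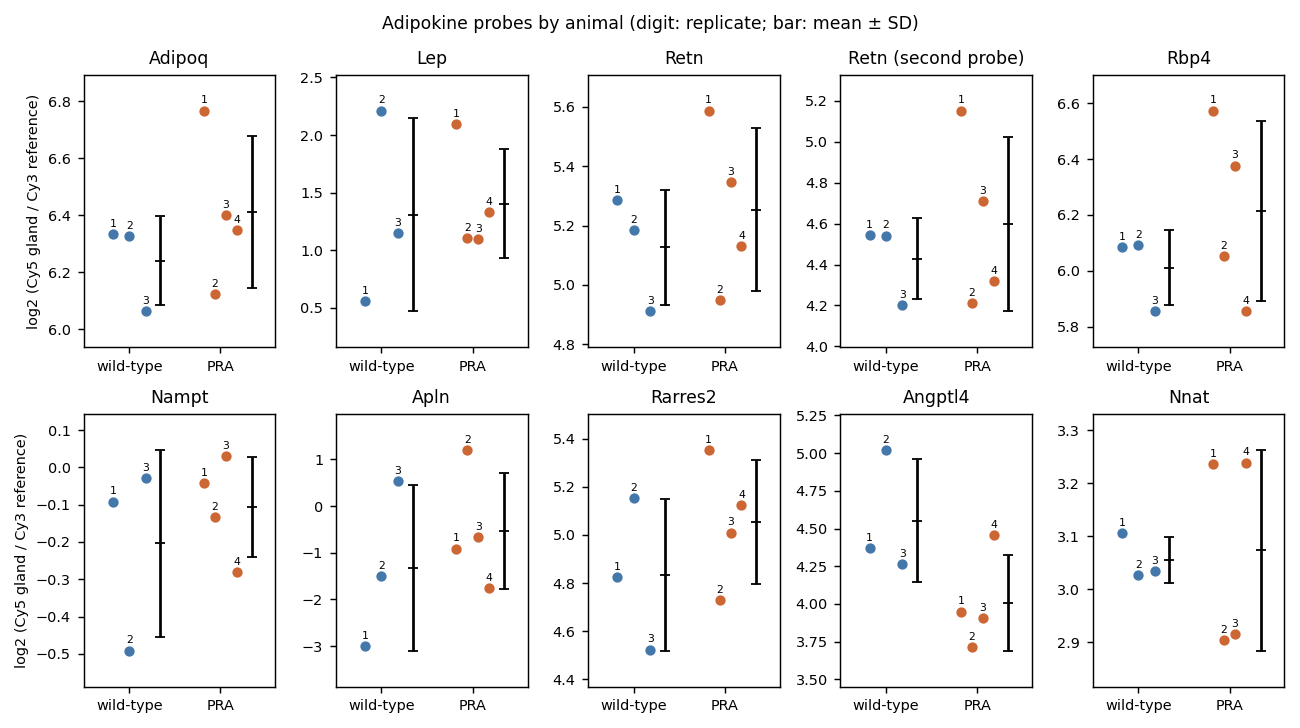
Log2 ratio of gland (Cy5) to reference (Cy3) at each adipokine probe, 1 point per animal numbered by replicate, blue for the 3 wild-type and orange for the 4 PRA transgenic glands, with mean ± SD in black and a separate vertical scale for each probe. The genotypes overlap in every panel, and Angptl4 comes nearest to a separation, with PRA transgenic replicate 4 among the wild-type values.

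Adiponectin differed little between the genotypes. The log2 ratio of Adipoq (chromosome 16, 23157576 to 23157635 of mm9) was 6.33, 6.33 and 6.06 in wild-type replicates 1 to 3. It was 6.77, 6.12, 6.40 and 6.35 in PRA transgenic replicates 1 to 4. The highest and the lowest animal, PRA transgenic replicate 1 and wild-type replicate 3, differed 1.63-fold, and the other 5 lay between them in mixed order. The genotype difference on the log2 scale was 0.17 (standard error 0.18, limma adjusted p = 0.823), and in Cy5 alone it was -0.01 (standard error 0.32).

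Resistin behaved in the same way at both of its probes. At the brighter probe (chromosome 8, 3657312 to 3657371 of mm9) the log2 ratios were 5.28, 5.19 and 4.91 in wild-type and 5.59, 4.95, 5.35 and 5.13 in PRA transgenic glands. At the probe further along the gene (3659757 to 3659816) they were 4.54, 4.54 and 4.20, and 5.15, 4.21, 4.71 and 4.32. At both probes PRA transgenic replicate 1 was the highest array and wild-type replicate 3 the lowest, as for Adipoq. The log2 fold changes were 0.13 (standard error 0.18) and 0.17 (standard error 0.25), with limma adjusted p of 0.887 and 0.886.

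Rbp4, the retinol carrier, and Rarres2, which encodes chemerin, each had a small positive difference that was close to its standard error. The log2 ratio of Rbp4 (chromosome 19, 38191129 to 38191188 of mm9) was 6.08, 6.09 and 5.85 in wild-type and 6.57, 6.05, 6.38 and 5.85 in PRA transgenic glands. That of Rarres2 (chromosome 6, 48519775 to 48519969 of mm9, a probe whose ends lie further apart in the genome than its length) was 4.83, 5.15 and 4.52, and 5.35, 4.73, 5.01 and 5.12. PRA transgenic replicate 1 was again the highest array for both genes. PRA transgenic minus wild-type gave 0.20 (standard error 0.19, limma adjusted p = 0.806) for Rbp4 and 0.22 (standard error 0.20, limma adjusted p = 0.801) for Rarres2.

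These 4 genes followed the fat cell markers from animal to animal. A list of 14 white adipocyte markers that holds no member of the adipokine group (Plin1, Fabp4, Cidec, Lipe, Pnpla2, Dgat2, Slc2a4, Adrb3, Gpd1, Acsl1, Aqp7, Car3, Lpl and Cd36) had all its genes tested. Its mean log2 ratio was 6.11, 6.25 and 5.88 in wild-type and 6.57, 6.04, 6.23 and 6.15 in PRA transgenic glands. The extremes were the same 2 animals as for Adipoq, and the genotypes overlapped. For Aqp7 the Cy3 signal was well above background on 0 arrays. Its log2 ratio was 7.89 in wild-type replicate 2 and 5.37 in wild-type replicate 3, while its scaled Cy5 was lowest in wild-type replicate 1. The part of Aqp7 in the list mean was not tested. When that mean was taken off each array, the SD over the 7 animals went from 0.23 to 0.06 for Adipoq and from 0.28 to 0.12 for Rarres2. It went from 0.23 to 0.09 and from 0.34 to 0.16 for the 2 Retn probes, and from 0.26 to 0.14 for Rbp4. For Lep the SD only went from 0.59 to 0.48, and for Angptl4, Nampt, Apln and Nnat it was larger after the step, at 0.50, 0.29, 1.50 and 0.19. With the list taken off, the log2 fold change was -0.00035 for Adipoq, -0.04 for the brighter Retn probe, 0.04 for Rbp4 and 0.05 for Rarres2. In bulk RNA, fewer cells of a type and less RNA per cell cannot be told apart.

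The same step on scaled Cy5 alone, added after the values were seen, narrowed these genes less. The SD of Adipoq went from 0.44 to 0.28, that of Rarres2 from 0.48 to 0.33 and that of Rbp4 from 0.36 to 0.26. For the brighter Retn probe it went from 0.33 to 0.17. Lep narrowed here too, from 0.50 to 0.30. In Cy5 alone Adipoq was highest in PRA transgenic replicate 1, wild-type replicate 2 and PRA transgenic replicate 4, and its Cy3 signal was highest in wild-type replicate 2 and PRA transgenic replicate 4. The scaled Cy3 of Adipoq spanned 1.81-fold over arrays that carried the same reference RNA. That of Rarres2 spanned 1.58-fold, that of Rbp4 1.44-fold and that of the brighter Retn probe 1.37-fold. The part of that movement in the ratio was not tested.

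**Figure D2:**
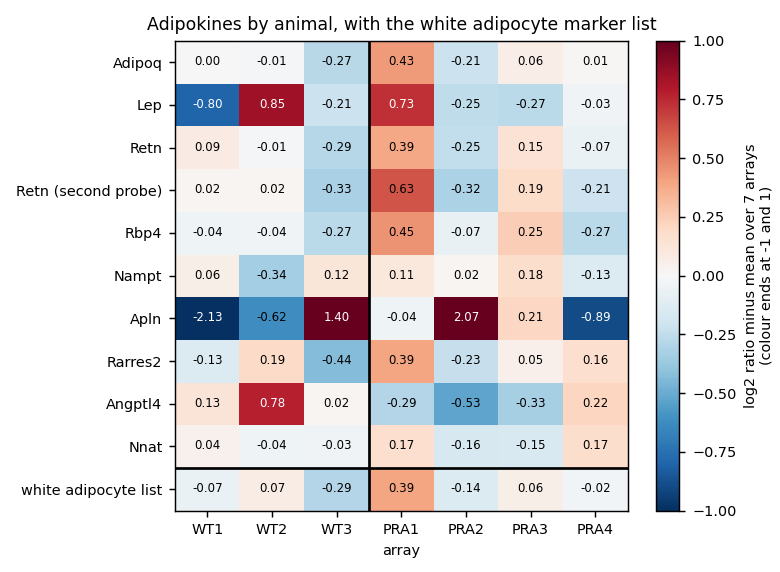
Log2 ratio of each adipokine probe minus its mean over the 7 arrays, with the mean of the 14 white adipocyte markers in the bottom row; columns are animals, red is above the probe's mean and blue below, and colours end at -1 and 1. Adipoq, Retn, Rbp4 and Rarres2 share the red of PRA transgenic replicate 1 (0.39 for the marker list) and the blue of wild-type replicate 3 (-0.29), while Lep, Apln and Angptl4 have patterns of their own.

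Over the 22452 genes compared, the pattern of Adipoq across the animals was most like that of Fxyd1, Spg21 and A530040E14Rik, with root mean square differences of 0.04, 0.05 and 0.05 between mean-centred log2 ratios, against a median of 0.31 for all genes. Fxyd1 encodes a regulator of the sodium pump.

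Leptin varied more between animals than adiponectin in the log2 ratio, while in Cy5 alone the spreads of the 2 genes were close. The Lep probe lies on chromosome 6 from 29020910 to 29020969 of mm9 (plus strand) and is shown because its letters fix which transcript was read.
Lep probe: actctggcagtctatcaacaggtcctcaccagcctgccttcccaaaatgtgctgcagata
The log2 ratio was 0.56, 2.21 and 1.15 in wild-type and 2.09, 1.11, 1.09 and 1.33 in PRA transgenic glands. Wild-type replicate 2 and PRA transgenic replicate 1 were the high animals, wild-type replicate 1 was the lowest, and the highest and lowest differed 3.14-fold, against 1.63-fold for Adipoq. In Cy5 alone the spans were 2.25-fold for Lep and 2.32-fold for Adipoq, and the SDs were 0.50 and 0.44. Between genotypes Lep differed by 0.10 on the log2 scale (standard error 0.42, limma adjusted p = 0.972). Without wild-type replicate 1 it was -0.27, without PRA transgenic replicate 1 it was -0.13, and without wild-type replicate 2 it was 0.55, so its direction rested on single animals. In scaled Cy5 the same 2 animals were high, at 0.60 and 0.63, and the other 5 lay between -0.55 and -0.16. The lowest there was PRA transgenic replicate 2 at -0.55, with wild-type replicate 1 at -0.49. The scaled Cy3 of Lep spanned 1.51-fold. It was highest in wild-type replicate 1, at -1.05, and lay between -1.64 and -1.40 on the other arrays. The part of that movement in the ratio was not tested.

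The patterns most like that of Lep were those of an unnamed transcript on chromosome 10, AK135720 and Rhbdl3, at root mean square differences of 0.12, 0.14 and 0.16, against a median of 0.58 for all genes.

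Angptl4, which blocks lipoprotein lipase and thereby the uptake of fatty acids from lipoproteins, had the lowest p of the 10 probes. Its log2 ratio (chromosome 17, 33911880 to 33911939 of mm9) was 4.37, 5.02 and 4.26 in wild-type and 3.95, 3.72, 3.91 and 4.46 in PRA transgenic glands. Of the PRA transgenic animals, 3 lay below every wild-type animal, and replicate 4 lay above 2 of the 3 wild-type animals. The means were 4.55 ± 0.41 (SD, n = 3) and 4.01 ± 0.32 (SD, n = 4). The log2 fold change was -0.55 (standard error 0.25), and the limma adjusted p was 0.581, so the difference did not pass. Its unadjusted p in limma of 0.0620 ranked 3653 among the 34284 probes. The Cy3 signal of this probe spanned 1.15-fold, and Cy5 alone gave -0.48 (standard error 0.22, limma adjusted p = 0.588).

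Single animals weighed on this value. Without PRA transgenic replicate 4 the log2 fold change was -0.70 (limma adjusted p = 0.337), and without wild-type replicate 2 it was -0.31 (limma adjusted p = 0.795). Relative to the white adipocyte list it was -0.71 (limma adjusted p = 0.520). The skeletal muscle markers, 9 of 10 tested, varied between the same glands. Their mean log2 ratio was 1.88, -0.91 and 3.47 in wild-type and -0.63, -0.35, -0.63 and 2.51 in PRA transgenic glands. PRA transgenic replicate 4, the animal with the high Angptl4 of its genotype, was also the one with high muscle markers, while wild-type replicate 2, with the highest Angptl4 of all, had the lowest. The mean log2 ratio of 7 macrophage markers was 2.61, 2.64 and 2.33 in wild-type and 2.30, 2.55, 2.35 and 3.09 in PRA transgenic glands. Replicates 2 and 4 were the highest of their genotypes, wild-type and PRA transgenic, as for Angptl4. The part of either list in the Angptl4 values was not tested.

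Apelin varied more than any other member. The log2 ratio of Apln (chromosome X, 45378593 to 45378652 of mm9) was -3.004, -1.49 and 0.53 in wild-type and -0.91, 1.20, -0.67 and -1.76 in PRA transgenic glands. Wild-type replicate 1 and PRA transgenic replicate 2 were the extremes and differed 18.4-fold. Within genotypes the SD was larger than that of 99.5% of all probes tested. Scaled Cy5 spanned 18.5-fold, while the reference signal spanned 1.23-fold, so the spread lay in the gland channel. The log2 fold change of 0.79 (standard error 0.95, limma adjusted p = 0.853) was smaller than the spread between animals, and without wild-type replicate 1 it was -0.05.

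Nnat looked flat as a ratio and variable as a signal. The log2 ratio (chromosome 2, 157387978 to 157388037 of mm9) was 3.11, 3.03 and 3.03 in wild-type and 3.24, 2.90, 2.92 and 3.24 in PRA transgenic glands, a span of 1.26-fold. Scaled Cy5 was 3.31, 5.23 and 3.59 in wild-type and 3.68, 1.83, 1.55 and 4.67 in PRA transgenic glands, a span of 12.8-fold. Scaled Cy3 at the same spots was 0.21, 2.20 and 0.57, and 0.47, -1.06, -1.35 and 1.45, a span of 11.8-fold. Wild-type replicate 2 and PRA transgenic replicate 4 were high and PRA transgenic replicates 2 and 3 low in both dyes, although the Cy3 RNA was the same on every array.

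Such movement of the reference was rare. The SD of scaled Cy3 over the arrays was 1.27 for Nnat, against a median of 0.08 over the 25192 probes tested that had Cy3 above background on all arrays, and only 11 of these, Nnat included, had an SD that high. The genotype difference therefore depended on the channel. It was 0.02 (standard error 0.14, limma adjusted p = 0.986) in the ratio, -1.11 (standard error 0.84, limma adjusted p = 0.752) in Cy5 and -1.12 (standard error 0.83, limma adjusted p = 0.704) in Cy3. None passed the test. Why the reference moved at this probe was not tested.

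**Figure D3:**
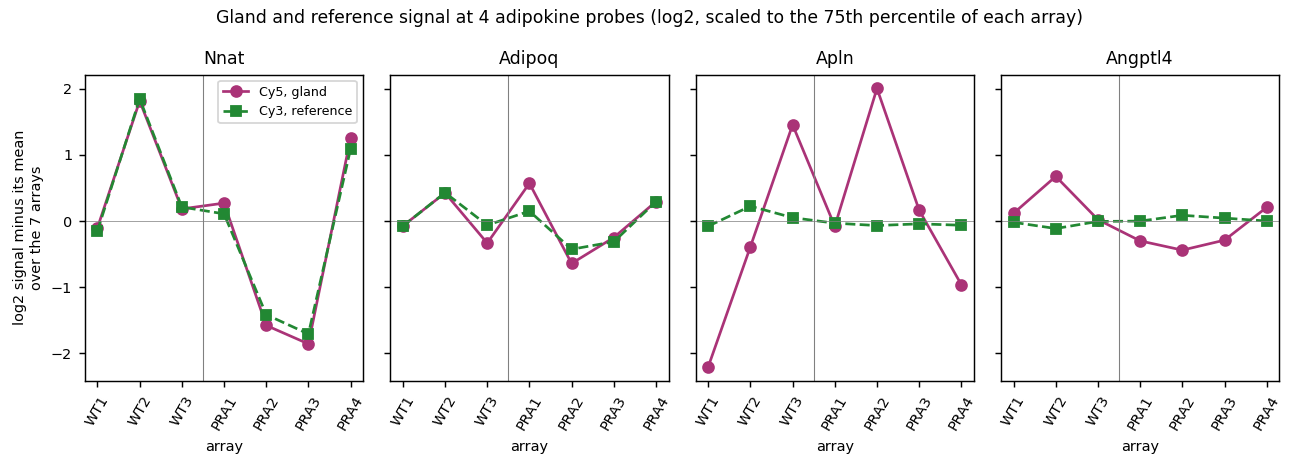
Scaled log2 signal of the gland (Cy5, circles) and of the reference (Cy3, squares) minus its mean over the 7 arrays for 4 adipokine probes, with wild-type arrays left and PRA transgenic arrays right of the grey line. For Nnat both dyes move together over 12.8-fold and 11.8-fold, for Adipoq the reference moves over 1.81-fold, and for Apln and Angptl4 it spans 1.23-fold and 1.15-fold while Cy5 varies.

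Nampt was the least variable member in scaled Cy5, at 1.48-fold over the 7 animals. Its log2 ratio (chromosome 12, 33535475 to 33535534 of mm9) was -0.09, -0.49 and -0.03 in wild-type and -0.04, -0.13, 0.03 and -0.28 in PRA transgenic glands, so gland and reference signals were close. Wild-type replicate 2 was the low animal. Its log2 fold change was 0.10 (standard error 0.16, limma adjusted p = 0.899). None of the 9 genes tested around it in NAD salvage had an unadjusted p under 0.05, against 9.02% of all probes. Among these 9 genes 2 did not overlap between genotypes, in opposite directions, against 9.95% of all probes without overlap. In Cy5 alone the genotypes overlapped for both. Nmnat3, an enzyme that makes NAD from nicotinamide mononucleotide, was 0.48 to 0.53 in wild-type and 0.54 to 1.69 in PRA transgenic animals, with a log2 fold change of 0.42 (limma adjusted p = 0.709). Sirt1, a deacetylase that uses NAD, was lower at its brightest probe, with 0.57 ± 0.07 (SD, n = 3) for the wild-type and 0.39 ± 0.09 (SD, n = 4) for the PRA transgenic animals (limma adjusted p = 0.683), while its other probe tested gave a log2 fold change of 0.03.

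**Figure D4:**
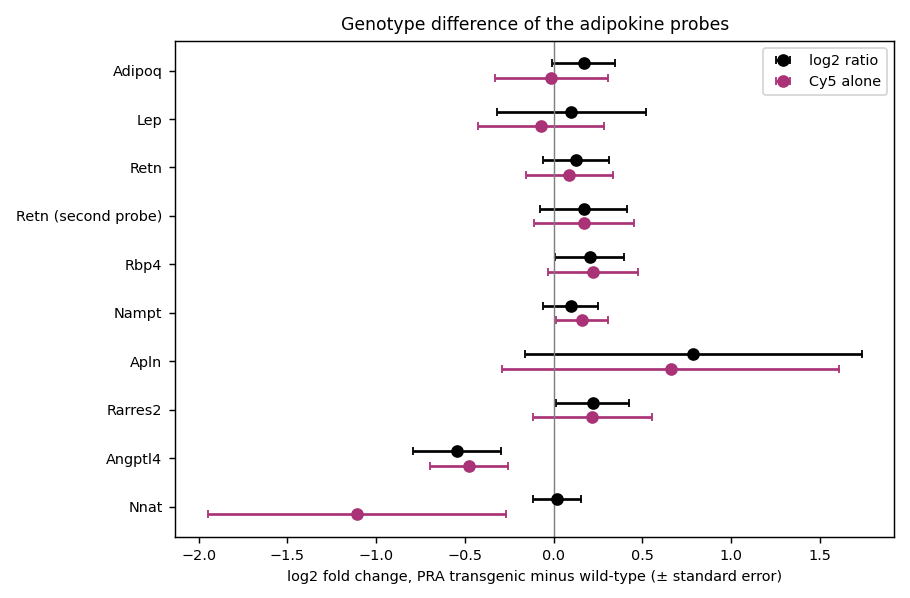
Log2 fold change, PRA transgenic minus wild-type, with limma standard errors for each adipokine probe, from the log2 ratio (black) and from Cy5 alone (purple). Both measures give Angptl4 a negative value (-0.55 and -0.48), while Nnat is 0.02 in the ratio and -1.11 in Cy5.

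Receptors of the adipokines were tested for 11 of 12 genes of that list. None had an unadjusted limma p under 0.05, against 9.02% of all probes. Their median log2 fold change was -0.05. Adipor1, the adiponectin receptor best known from muscle, had log2 ratios of -0.03 ± 0.06 (SD, n = 3) for wild-type and 0.09 ± 0.02 (SD, n = 4) for PRA transgenic animals. The genotypes did not overlap there, as at 9.95% of all probes, and the difference was 0.11 (limma adjusted p = 0.787). Log2 fold changes were 0.40 for Adipor2 and 0.32 for Cdh13, which binds adiponectin multimers. It was -0.05 for Lepr, -0.05 for Cmklr1, a chemerin receptor, and -0.14 for Stra6, the receptor for Rbp4. The list also held Gpr1 at -0.75 (-0.17 in Cy5 alone) and Ccrl2 at -0.51 (-0.48 in Cy5 alone). For the apelin receptor Aplnr the log2 fold change was -0.82 (standard error 0.79). Its log2 ratio was 1.45 in PRA transgenic replicate 1 and 3.07 to 4.74 in the other 6 animals. The reference was well above background on 1 array for Aplnr and on none for Cmklr1 and Gpr1, and Cy5 alone gave Aplnr -0.33. Other probes of some receptors differed from the brightest one, with log2 fold changes of -0.11 to 0.52 for Adipor1, -0.29 to 0.37 for Cdh13 and -1.82 for Lepr.

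Around Angptl4, all 9 genes of lipoprotein lipase control were tested. Gpihbp1, which holds lipoprotein lipase on the capillary wall, had a log2 ratio of 4.47, 4.95 and 4.86 in wild-type and 5.34, 5.23, 5.17 and 5.07 in PRA transgenic glands. Every PRA transgenic animal lay above every wild-type animal, with a log2 fold change of 0.44 (standard error 0.15, limma adjusted p = 0.466). Of all probes, 9.95% had genotypes that did not overlap. In scaled Cy5 the genotypes overlapped for Gpihbp1, at 3.14, 4.15 and 3.98 in wild-type and 4.32, 4.37, 4.25 and 3.94 in PRA transgenic glands. The log2 ratio of Lpl itself was 6.42, 7.11 and 6.71, and 7.32, 6.45, 6.70 and 6.70, a log2 fold change of 0.05 (limma adjusted p = 0.978). Angptl8, a protein made by fat and liver, was 2.96, 2.97 and 3.16 in wild-type and 4.86, 4.41, 4.73 and 2.65 in PRA transgenic glands. Here 3 of the 4 PRA transgenic animals were above all wild-type animals and replicate 4 was below them, and the log2 fold change of 1.13 (standard error 0.52, limma adjusted p = 0.585) did not pass. In Cy5 alone the log2 fold change of Angptl8 was 2.14.

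Downstream of leptin and adiponectin, 1 gene of each list had an unadjusted limma p under 0.05, against 9.02% of all probes. Genotypes did not overlap at 9.95% of all probes. Of 7 genes of leptin signalling, Stat3, the transcription factor that the leptin receptor activates, had log2 ratios of 0.45 ± 0.09 (SD, n = 3) for wild-type and 0.14 ± 0.15 (SD, n = 4) for PRA transgenic animals, without overlap (log2 fold change -0.31, limma adjusted p = 0.536). This was its brightest probe, and its 2 other probes gave 0.22 and 0.35, the opposite direction. Of 10 genes of adiponectin signalling and assembly, Erp44, which retains adiponectin in the secretory pathway until it is assembled, was -0.12 ± 0.08 (SD, n = 3) and -0.44 ± 0.06 (SD, n = 4), also without overlap (log2 fold change -0.32, limma adjusted p = 0.463). Of the 7 and 10 genes, 5 and 7 were lower in PRA transgenic glands, while 54.2% of all probes were above 0. The medians of the lists were -0.13 and -0.11.

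Among 8 transcription factors of fat cells, Srebf1, which drives the genes of fatty acid synthesis, was 1.86, 1.69 and 1.75 in wild-type and 2.49, 2.65, 2.93 and 1.75 in the PRA transgenic animals, which gave a log2 fold change of 0.69 (standard error 0.27, limma adjusted p = 0.518). PRA transgenic replicate 4 was again the animal that lay with the wild-type values. The log2 fold changes of Pparg and Cebpa, the factors that commit cells to the fat lineage, were 0.32 and 0.05, with limma adjusted p of 0.687 and 0.962.

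Of 25 further factors that fat secretes, 23 were tested. Ccl2, a chemokine for monocytes, had a log2 ratio of -2.26, -2.13 and -2.30 in wild-type and -2.64, -2.87, -2.95 and -2.76 in PRA transgenic glands. All 4 PRA transgenic animals lay below all wild-type animals, while 9.95% of all probes had genotypes that did not overlap. The log2 fold change of Ccl2 was -0.58 (standard error 0.12, limma adjusted p = 0.342), and Cy5 alone gave -0.55. Sfrp5, a secreted Wnt antagonist, had a log2 fold change of 0.45 in the ratio (limma adjusted p = 0.539) and of -0.73 in Cy5 alone. Cfd, which encodes adipsin, had a log2 fold change of 0.25 (limma adjusted p = 0.831).

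Over the 77 pathway genes tested, 6 had an unadjusted limma p under 0.05, which is 7.79% against 9.02% of all probes. Gpihbp1, Srebf1 and Sfrp5 were the 3 with positive and Stat3, Erp44 and Ccl2 the 3 with negative differences. None of the 77 had an adjusted p under 0.05, and the median log2 fold change was 0.0064. In Cy5 alone 7 of the 77 had an unadjusted limma p under 0.05, which is 9.09% against 8.73% of all probes, and again none passed after adjustment.

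**Figure D5:**
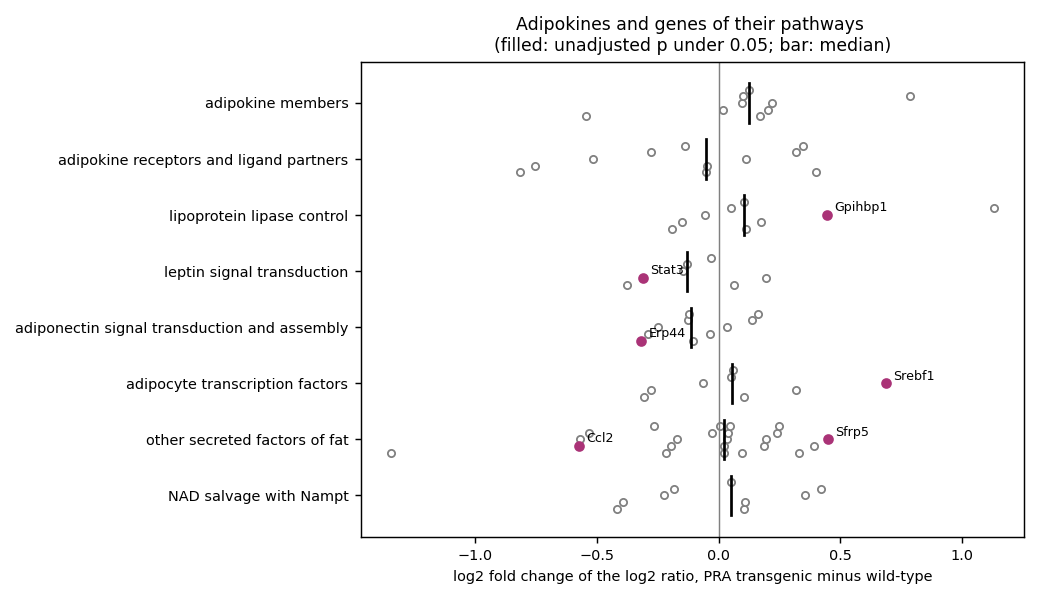
Log2 fold change of the log2 ratio, PRA transgenic minus wild-type, for each tested gene of the adipokine group and of 7 pathway lists, with filled points for an unadjusted limma p under 0.05 and a black bar at the median of each list. The 6 filled genes are spread over 5 of the lists, 3 on each side of 0, and the medians lie between -0.13 and 0.13.

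Cell type markers gave the setting of these values. Of the 14 white adipocyte markers 12 were higher in PRA transgenic glands, against 54.2% of all probes. The median log2 fold change of the 14 was 0.18 in the ratio and -0.03 in Cy5 alone, so the direction differed between the measures. Lipe, the hormone-sensitive lipase, had the lowest p of that list, with a log2 fold change of 0.42 (limma adjusted p = 0.493) at its brightest probe and of -0.14 at its other probe tested. The other marker genes with an unadjusted p under 0.05 were Cldn3 of luminal epithelium at 0.41, Emcn of endothelium at 0.78 and Cd163 of macrophages at 0.47. Below 0 were Prdm16 of brown fat at -0.75, Cd8a of T cells at -2.71 and Col3a1 of fibroblasts at -0.53, whose 2 other probes were at 0.34 and 0.44. The other Cd163 probe was at 0.01. None of these genes passed after adjustment in limma. Each marker list held at most 1 of them, while 9.02% of all probes had an unadjusted limma p under 0.05. For Prdm16 and Cd8a the Cy3 signal exceeded background on 0 arrays, for Emcn on 1 array and for Cd163 on 4 arrays. In Cy5 alone Cldn3 was at -0.52 and Cd163 at 0.02. The Cy5 of Cd8a was well above background on only 4 arrays, and Cd8a was tested because it passed on every wild-type array. Its scaled Cy5 was -6.12 and -6.08 in PRA transgenic replicates 1 and 3, so its log2 fold change includes values at background. The mean log2 ratio of 7 T cell markers was 2.05 in wild-type replicate 1 and between -0.25 and 0.41 in the other 6 glands. The B cell markers were high in the same animal, at 0.71 against -1.46 to -0.87 in the others. Without this animal the differences of Lep and Apln turned negative, and that of Lep also did so without PRA transgenic replicate 1. The part of the T and B cell markers in the adipokine values was not tested. Median log2 fold changes of the ratio were -0.67 for these T cell markers, -0.41 for 4 B cell markers, -0.10 for macrophages, -0.12 for fibroblasts and -1.34 for skeletal muscle. They were 0.03 for luminal and 0.11 for basal epithelium, 0.17 for endothelium and 0.04 for brown adipocytes, and the mean log2 ratios of the animals overlapped between genotypes for each of these lists.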

How the data were processed

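Per the labels, each array held Cy5-labeled gland RNA of 1 mouse and Cy3-labeled Universal Mouse Reference RNA. The deposited files of each array hold intensity values that Agilent Feature Extraction (12.0 per the labels, 11.5.1.1 per the file headers) had background-subtracted and dye-normalized. The authors also deposited a table of log2 ratios, which matched the log2 ratios computed here, centered per probe on the median of the 7 arrays, within 0.01 for 100% of values. Its column medians ran from -0.015 to 0.027.

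Control and outlier spots were left out and spots of a probe averaged. The comparison took in 34284 of 56605 probes, those whose Cy5 the scanner software marked well above background in every array of 1 genotype or both. It was made with lmFit and eBayes of limma 3.58.1 (R 4.3.3), with Benjamini-Hochberg adjustment over all of them. The main comparison used 3 against 4 arrays without covariates. Saturated spots numbered 0, and precision is limited by how few arrays there were. Steps were tested on simulated data. Positions of probes were copied from the deposited files (mm9); promoters are from RefSeq, GRCm38.p6. For genes with several probes the brightest in Cy5 stood for the gene.

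The members and the marker and pathway lists were chosen with earlier results of these data known. Named were all members, their direct receptors and enzymes, list genes with an unadjusted p under 0.05, and, for Adipoq and Lep, the 3 genes of nearest pattern. Angptl8, Nmnat3, Sirt1, Gpr1 and Ccrl2 were named after their values were seen. Alternatives were another background correction (normexp, offset 50, with loess), the authors' table, a stricter filter or none, Cy5 alone, quantile normalization, scaling to white adipocyte markers, the methods' t-test, a replicate block, leaving out each array, and the median over probes. Marker lists covered white and brown adipocytes, luminal and basal epithelium, skeletal muscle, endothelium, macrophages, T cells, B cells and fibroblasts.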

Additional observations from a re-analysis of the deposited data

Results flagged for a closer look

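Of 24 groups of 4 animals examined, 2 held an animal whose gap to its nearest neighbour was large against the range of the group, and 1.2 are expected by chance. In the PRA transgenic group the mean log2 ratio of skeletal muscle markers was 2.51 in replicate 4 and between -0.63 and -0.35 in the other 3 animals, a gap of 0.911 of the range. The mean of luminal epithelium markers was 3.96 in PRA transgenic replicate 3 and 4.35 to 4.38 in the others, a gap of 0.939 of the range. No adipokine probe was among them.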

How the results depend on the processing

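The count of adipokine probes with an adjusted p under 0.05 was 0 under every alternative run, and the median log2 fold change of the 9 genes was above 0 under each (0.05 to 0.21) except with the white adipocyte markers taken off (-0.043). The count with an unadjusted limma p under 0.05, which was 0, became 1 with both dyes required above background on all arrays, 1 after the white adipocyte markers were taken off and 1 with the replicate number as a block, and ranged from 0 to 1 as arrays were left out, being 1 without wild-type replicate 3 or PRA transgenic replicate 4. That probe was Angptl4, whose log2 fold change was negative under all 16 alternatives (-0.71 to -0.31), while Rbp4 and Rarres2 were positive under all 16. The authors' table, both changes of filter and the methods' t-test use the same log2 ratios, so they could not change a log2 fold change. The replicate block and the fit without PRA transgenic replicate 4 also gave equal values, -0.70 for Angptl4. The 16 are thus not independent checks. Some members changed direction. With Cy5 alone the values were -0.012 for Adipoq, -0.073 for Lep and -1.11 for Nnat. With the white adipocyte list taken off they were -0.00035 for Adipoq, -0.070 for Lep, -0.043 for Retn, -0.072 for Nampt and -0.15 for Nnat. With normexp and loess they were -0.0071 for Lep and -0.20 for Nnat. As arrays were left out, log2 fold changes ran from -0.27 to 0.55 for Lep, from -0.047 to 0.18 for Nampt, from -0.053 to 1.71 for Apln and from -0.037 to 0.074 for Nnat. The causes were not tested.

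Deviations of same-numbered animals from their genotype means correlated at 0.10, -0.30 and 0.04. The PRA transgenic animal of highest correlation had the same number for wild-type replicate 1 only. With so few animals these values cannot show whether the numbers pair the animals. With the number as a block over 6 arrays Nnat was -0.037. Over all probes, adjusted calls went from 4 to 0 with the block (12 on the same 6 arrays without it), to 15 with no filter, to 6 with normexp and loess and to 1 with the methods' t-test. A slide term could not be fitted, because all arrays shared 1 slide.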

Other observations

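Movement of the reference signal was largest among the members at Nnat. It was smaller at Adipoq, Rarres2, Lep, Rbp4 and the brighter Retn probe. Such movement was looked at over all 25192 probes with Cy3 above background on every array. Of the 252 probes with the highest SD of scaled Cy3, 32.5% had a mean log2 ratio above 2, against 3.64% of the other 24940 probes. In 126 of the 252 the SD of the ratio was less than 0.5 of the SD of Cy5, against 1.22% of the others. At such probes a comparison by ratio and a comparison by Cy5 give different values, as for Nnat. This description was chosen after the values were seen. The 252 probes were picked by their Cy3 SD, and a ratio SD that small needs a Cy3 that moves with Cy5. Much of the contrast in the ratio SD thus follows from the choice of probes. The cause of the movement was not tested.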
